A study of Caenorhabditis elegans with 2 samples.

Results

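The small ribosomal subunit of Caenorhabditis elegans is built from the proteins of the genes rps-0 to rps-30 and ubl-1, and binding of the transcription factor TLF-1 was described at these genes. The members were taken by name, as the protein-coding genes of the WBcel235 annotation called rps followed by a number, together with ubl-1. There were 32 of them among 19973 nuclear protein-coding genes. The rule uses gene names alone.

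Binding was measured by chromatin immunoprecipitation and sequencing in 2 biological replicates of 1 group, with no other group. Strain OP749 carries the integrated transgene wgIs749, in which TLF-1 ends in TY1, EGFP and 3xFLAG tags, and unc-119(+) on that transgene rescues the unc-119(tm4063) background. The worms were whole young adults of 65.5 hours, males and females pooled, synchronised as L1 larvae starved after bleaching, and an antibody against GFP pulled down the tagged protein. The material was whole worms, so a peak does not tell in which cells TLF-1 was bound, and the tagged copy came from a transgene. The authors deposited a peak list per replicate with 24495 peaks for replicate 1 and 23453 for replicate 2, a pooled list of 28153, and a set of 1880 thresholded on the irreproducible discovery rate (IDR), which measures how well peak ranks repeat between replicates. Both replicate lists share 1 control, the 1880 IDR peaks are the strongest of the pooled list, and read depth is not given in the sources used here.

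Each ribosome has a small subunit, which holds the mRNA and checks the match of codon and tRNA, and a large subunit, which joins the amino acids. Ribosomal protein genes are among the most actively transcribed genes of growing animals, and each subunit needs its proteins in matched amounts. TLF-1 belongs to a family of proteins related to the TATA-binding protein TBP. In Drosophila a relative of TLF-1 acts in place of TBP at ribosomal protein genes, many of which lack a TATA box.

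The sequences below are the bases around the strongest TLF-1 summit, the highest point of a peak, of members with high ranks, since they show what DNA lies under the peaks. They are on WBcel235 (ce11), read from the RefSeq copy of that assembly on the strand of the gene, 5′ to 3′. The window reaches 100 bases to each side of the summit, and for rps-0 it ends where the exon of its neighbour begins. Capitals mark matches on either strand to the 6 short motifs TATAAA or CCAAT or TTTCCC or GCGCCA or TGCGCA or GCGCGC, and to a pair of longer words described further on. The capitals of rps-0 join a longer word and TATAAA read on the other strand. The last line is rps-21, a member with no IDR summit, around its pooled summit.
rps-1, chrIII:4475557-4475757, plus strand, 201 bases: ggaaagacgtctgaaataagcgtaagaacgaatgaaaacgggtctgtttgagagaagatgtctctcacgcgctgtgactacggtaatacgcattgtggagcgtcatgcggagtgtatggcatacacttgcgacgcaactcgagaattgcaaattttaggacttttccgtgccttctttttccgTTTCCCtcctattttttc
rps-23, chrIV:12391245-12391445, minus strand, 201 bases: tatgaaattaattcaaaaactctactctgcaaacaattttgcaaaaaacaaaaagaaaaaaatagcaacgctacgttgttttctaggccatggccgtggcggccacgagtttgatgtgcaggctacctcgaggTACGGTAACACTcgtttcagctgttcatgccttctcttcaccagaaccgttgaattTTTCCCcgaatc
rps-28, chrIV:1659134-1659334, plus strand, 201 bases: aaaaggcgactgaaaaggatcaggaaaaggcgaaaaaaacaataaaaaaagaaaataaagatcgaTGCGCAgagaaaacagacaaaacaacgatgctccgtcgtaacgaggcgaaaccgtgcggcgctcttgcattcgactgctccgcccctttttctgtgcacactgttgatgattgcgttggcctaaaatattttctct
rps-0, chrIII:4754282-4754423, minus strand, 142 bases: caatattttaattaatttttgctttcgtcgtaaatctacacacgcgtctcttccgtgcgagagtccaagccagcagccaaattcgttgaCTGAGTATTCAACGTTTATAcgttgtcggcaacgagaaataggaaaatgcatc
rps-21, chrIII:7189813-7190013, minus strand, 201 bases: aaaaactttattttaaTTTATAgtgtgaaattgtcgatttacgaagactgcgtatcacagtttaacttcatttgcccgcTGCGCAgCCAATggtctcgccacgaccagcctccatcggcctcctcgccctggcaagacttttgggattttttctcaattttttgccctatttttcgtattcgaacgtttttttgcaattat

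TLF-1 summits lay near most of these genes. An IDR summit fell from -1000 to +500 bp of the annotated start of 24 of 32 members (75%), against 26 of 47 large subunit genes (55.3%) and 6.98% of all coding genes. In the pooled list 31 of 32 members had a summit in that window (96.9%), against 44 large subunit genes (93.6%) and 40.4% of all coding genes. Replicate 1 had a summit at 30 members, beside 37.2% of coding genes, and replicate 2 at 31, beside 36.8%. Both replicates had one at 29 members, against 5115 coding genes (25.61%). The counts are descriptions with no test over the list.

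The share depends on the strength and the window asked for. Among the 1880 strongest peaks of replicate 1, 21 members had a summit, beside 6.89% of coding genes, and among the 1880 strongest of replicate 2, 23 members did, beside 6.59%. From -500 to +100 bp, 21 members kept their IDR summit, and rps-11, rps-18 and rps-29 lost it, beside 5.28% of coding genes. From -250 to +100 bp only 8 members had one (25%), against 4 large subunit genes (8.51%) and 3.45% of coding genes, because most summits of the members lay farther upstream. Where each summit was given to the nearest coding start alone, 13 members had one (40.6%), against 18 large subunit genes (38.3%) and 5.23% of coding genes.

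**Figure D1:**
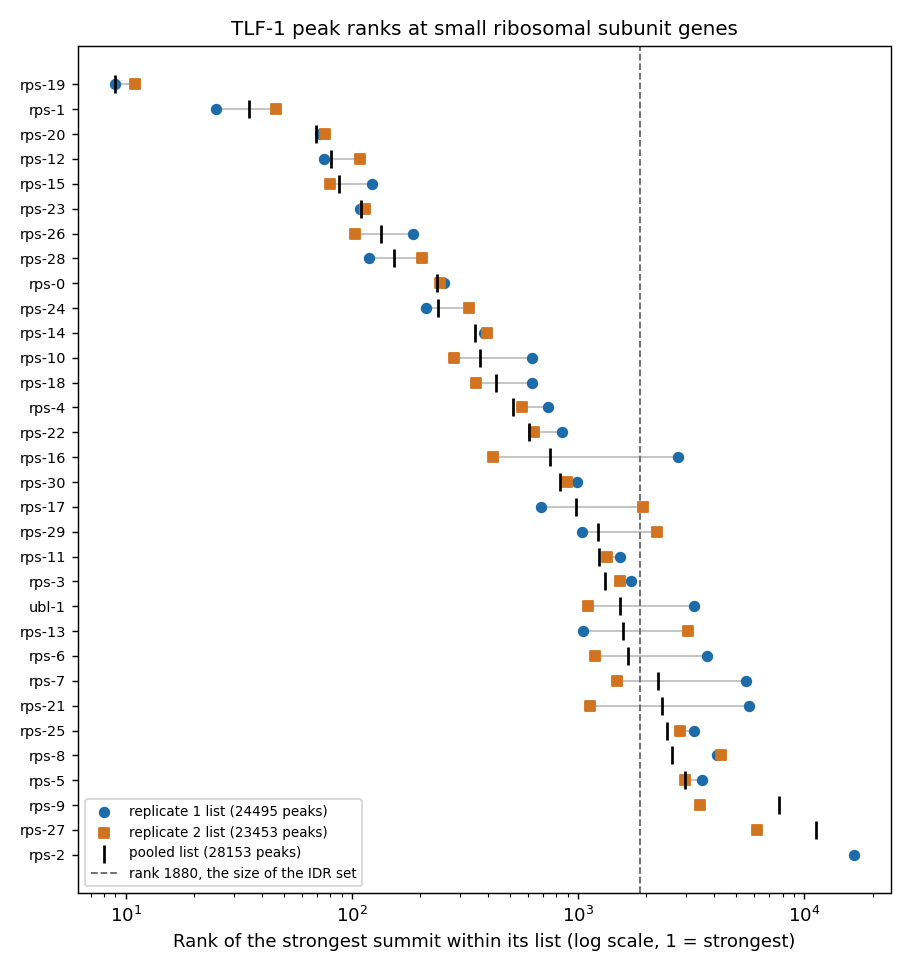
Rank of the strongest summit of each of the 32 members in the replicate 1, replicate 2 and pooled lists (log scale, 1 is the strongest), ordered by pooled rank. The dashed line is rank 1880, the size of the IDR set, and the members reach across the lists from rank 9 to rank 16489.

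The members that form the head of the small subunit, which contacts tRNA and the large subunit, had peaks from the top ranks down to the weaker end of the IDR set. An IDR summit was found at 12 of 14 head genes, against 24 of 32 members (75%) and 6.98% of all coding genes. The median pooled rank of the head genes was 593. The strongest was at rps-19, whose protein is needed to mature the small subunit and whose human counterpart is mutated in Diamond-Blackfan anaemia. That peak ranked 9 in replicate 1, 11 in replicate 2 and 9 in the IDR set, with a signal of 687, the authors' own value, which serves here only to rank peaks within a list. Its summit, at position 9626082 of chromosome I, lay at -286 bp of the rps-19 start and at -159 bp of that of hsr-9, on the other strand.

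Other head genes followed closely. The summit of rps-20 ranked 72 in replicate 1, 76 in replicate 2 and 69 in the IDR set, at -222 bp. That of rps-12 ranked 75, 108 and 81 in the same lists, at -169 bp. That of rps-15, whose protein lies near the tRNA sites, ranked 123, 80 and 88, at -393 bp. In each of these the replicate ranks lay close together, given the length of the lists. The rps-28 summit ranked 119 in replicate 1, 204 in replicate 2 and 153 in the IDR set, at -457 bp. The rps-10 summit ranked 627, 283 and 367, at -336 bp, and the rps-18 summit ranked 622, 352 and 434, at -560 bp. Both were nearer to the top in replicate 2.

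The remaining 5 head genes had weaker summits. The rps-16 summit ranked 2754 in replicate 1, 422 in replicate 2 and 752 in the IDR set, and the rps-17 summit 683, 1936 and 975. The rps-29 summit ranked 1035, 2238 and 1228, and that of rps-3, whose protein lines the mRNA entry, 1709, 1534 and 1308. The ubl-1 gene, which encodes a ubiquitin-like protein fused to a ribosomal protein, had a summit ranked 3246 in replicate 1, 1104 in replicate 2 and 1536 in the IDR set. Of these 5 genes, rps-3 alone ranked within the strongest 1880 in both replicates. Head genes with no IDR summit were rps-5 and rps-25.

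The body and platform, which border the decoding site and the mRNA exit, had an IDR summit at 12 of 18 genes, with a median pooled rank of 832 over the 17 with a pooled summit. The shares over all members and all coding genes were 75% and 6.98%, and the difference between head and body genes was not tested. The strongest was at rps-1, at rank 25 in replicate 1, 46 in replicate 2 and 35 in the IDR set. Its summit, at position 4475657 of chromosome III, lay at -261 bp, inside non-coding RNA genes annotated there. The rps-23 protein sits at the decoding centre, and its summit ranked 109, 114 and 110, at -292 bp. The rps-26 protein lies at the mRNA exit, and its summit ranked 187, 103 and 135, at -410 bp. For rps-23 the replicates gave nearly the same rank.

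The ranks of other body genes in the IDR set ran from 237 to 1657. The rps-0 summit ranked 255 in replicate 1, 244 in replicate 2 and 237 in the IDR set, and the rps-24 summit 212, 328 and 239. The summit of rps-14, whose protein is a platform component, ranked 382, 394 and 351. Those of rps-4, at 736, 563 and 516, and of rps-22, at 851, 637 and 604, were of middle strength. So was that of rps-30, whose protein is made as a fusion with a ubiquitin-like protein, at 987, 889 and 832. The rps-11 summit ranked 1531, 1344 and 1233. The rps-13 summit ranked 1051 in replicate 1, 3045 in replicate 2 and 1585 in the IDR set. The rps-6 protein is the classical substrate of S6 kinase, and its summit was the weakest of the 24, at 3705, 1190 and 1657. For rps-13 and rps-6 the better rank came from different replicates.

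Ranks of the 24 members repeated to a varying degree between replicates. The rank was better in replicate 1 for 11 and in replicate 2 for 13, and the 2 ranks were within 2-fold of each other for 17 and over 2-fold apart for 7. Among the 1880 strongest of both replicates at once were 18 of the 24. The other 6 were rps-6, rps-13, rps-16, rps-17, rps-29 and ubl-1, all from rank 752 down in the IDR set. Positions repeated closely. Replicate summits lay a median of 14.5 bp apart at the members, at most 68 bp at rps-13, and a median of 24 bp apart at the 1390 coding genes with an IDR summit and a summit in both replicates. They were within 20 bp of each other at 17 of the 24 members (70.8%), against 44.32% of those coding genes. The summits compared were the strongest of each replicate in the window of a gene. At some coding genes they may therefore belong to different peaks, and how often was not counted. The members also ranked higher within the IDR set, as given below, and the groups were not matched for rank. Both replicates were called against the same control, and what that adds to the likeness was not tested.

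The members ranked higher within the IDR set than coding genes at large. Their median IDR rank was 400.5, against 359 for large subunit genes and 777 for all 1394 coding genes with an IDR summit. Ranks of 100 or better were held by 5 of 24 members (20.8%), against 6 of 26 large subunit genes (23.1%) and 7.604% of coding genes. Ranks of 940 or better were held by 17 members (70.8%), against 22 large subunit genes (84.6%) and 57.2% of coding genes. Each of the 24 had exactly 1 IDR summit in its window, as did all but 57 of the 1394 coding genes with an IDR summit. In the median and in ranks of 100 or better, the small and large subunit genes lay nearer to each other than to coding genes at large. These groups share peaks, however. The summits of rpl-36 at rank 351, rpl-24.1 at 367 and rpl-39 at 832 are also those of rps-14, rps-10 and rps-30. The large subunit median of 359 falls between the ranks of rpl-36 and rpl-24.1.

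The 8 members without an IDR summit mostly had peaks all the same, and 7 of them a summit in the pooled list. The IDR set ends at pooled rank 1880, and just inside it stood rps-6 at 1657, while just outside stood rps-7, whose summit ranked 5491 in replicate 1, 1487 in replicate 2 and 2262 in the pooled list, at -208 bp. The rps-21 summit ranked 5669, 1122 and 2351, with the replicate 1 summit at +229 bp and the others near -282 bp, so these replicates did not place the same summit. The rps-25 summit ranked 3239, 2805 and 2471 at -320 bp, and that of rps-8 4125, 4265 and 2601 at -272 bp. The rps-5 summits ranked 3540, 2980 and 2951 and lay inside the gene, at +367 bp in replicate 1, +254 bp in replicate 2 and +264 bp in the pooled list, the last in a coding exon, so the replicate summits were 113 bp apart. The remaining 3 were weaker and were missing from a list. The rps-9 summit ranked 3437 in replicate 2 and 7689 in the pooled list, at -303 bp, and the rps-27 summit 6174 and 11226, in a coding exon at +157 bp, and neither had a summit in replicate 1. The rps-2 gene, whose protein lines the mRNA entry, had only a replicate 1 summit, ranked 16489, at -286 bp. At 5 of these 8 the strongest pooled summit lay between -320 and -208 bp, a distance also seen at the members with an IDR summit.

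**Figure D2:**
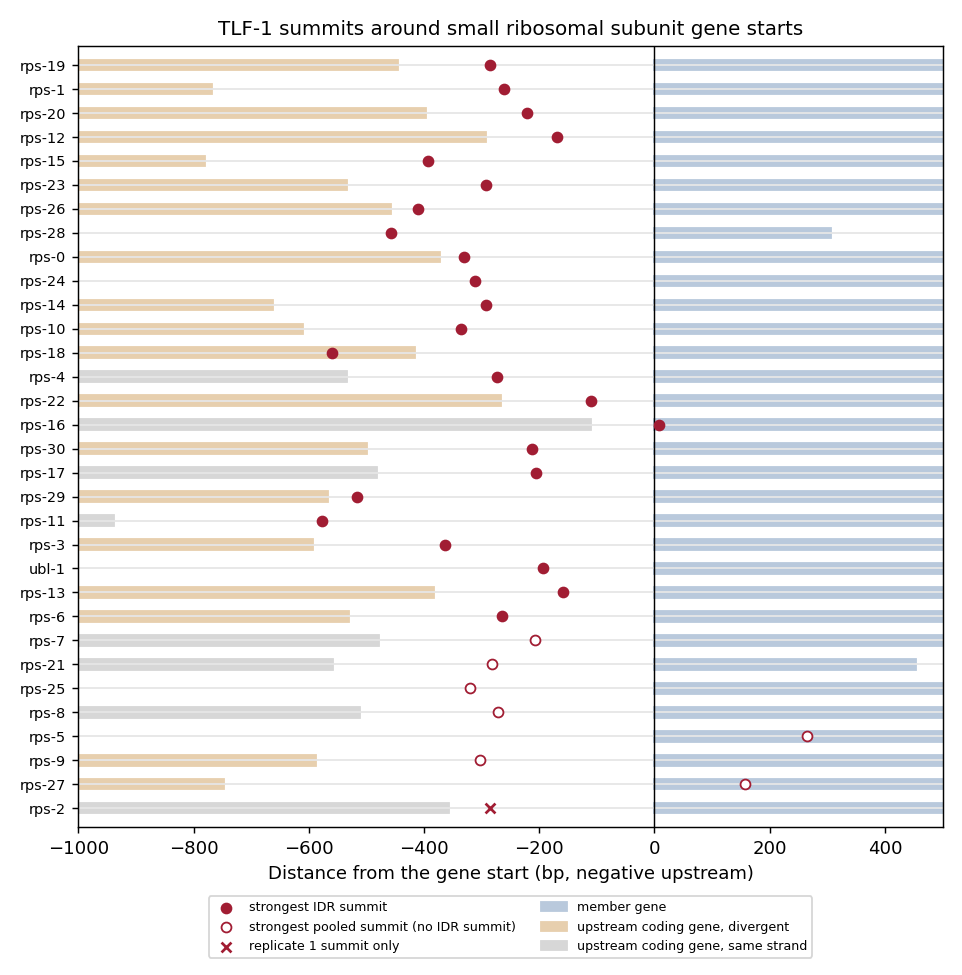
Position of the strongest summit of each member relative to its annotated start, in bp with upstream negative, with the member gene and its upstream coding neighbour as bars. The 24 IDR summits are filled, and 23 of them lie between -600 and -100 bp, a band drawn close around them, usually in the gap before a divergent neighbour.

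Summits sat at a narrow range of distances from the starts. The median over the 24 members was -289 bp, with quartiles at -370.5 and -210.2 bp. It was -301 bp for large subunit genes, with quartiles at -366.8 and -260.5 bp, and -232.5 bp for all coding genes with an IDR summit, with quartiles at -417.8 and -107 bp. Between -600 and -100 bp lay 23 of 24 member summits (95.8%), against 22 of 26 for large subunit genes (84.6%) and 60.8% for coding genes. This band was not planned, and its bounds lie close around the members' own upstream summits, from -578 to -111 bp. The high share of the members is thus largely set by the choice of band, and no conclusion is drawn from it. Within the last 200 bp before the start lay 4 member summits (16.7%), against 3 for large subunit genes and 32.7% for coding genes. Among upstream summits, the closest to the start were those of rps-22 at -111 bp, rps-13 at -159 bp, rps-12 at -169 bp and ubl-1 at -194 bp, and rps-17 and rps-30 followed at -205 and -212 bp. In the middle stood rps-4 at -273 bp, rps-14 at -292 bp, rps-24 at -312 bp and rps-3 at -363 bp, and rps-11 was the farthest at -578 bp. The summit closest of all to a start was that of rps-16, which lay 7 bp inside the gene and not upstream. That gene starts 109 bp downstream of the end of fib-1, which encodes the nucleolar methyltransferase fibrillarin, on the same strand. The annotated start of the members lay a median of 12 bp before the first codon and at most 141 bp, at rps-22. In C. elegans many mRNAs are trans-spliced near the first codon, which removes the original 5′ end, so the distances are to the annotated start and not to a mapped initiation site.

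The DNA under the members' summits was mostly free of annotated exons. Of the 24 summits, 17 were intergenic, 5 lay in exons of non-coding RNA genes, at rps-1, rps-6, rps-10, rps-13 and rps-30, and 1 in a 5′ untranslated exon, that of sec-61.A beside rps-18. The last, at rps-16, was in a coding exon. The places of other IDR summits were not counted, so these counts do not set the members apart.

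Most member summits stood between divergent genes, so the gene to which a summit belongs often cannot be told apart from its neighbour. The window of another coding gene held the same summit for 18 of 24 members (75%), against 16 of 26 large subunit genes (61.5%) and 50.4% of coding genes with an IDR summit. The summit was nearest to the member's own start for 13 (54.2%), against 18 large subunit genes (69.2%) and 73.5% of coding genes, and for 9 when non-coding genes competed as well. Some summits lay much closer to the neighbour. That of rps-0 was at -331 bp of the rps-0 start and at -42 bp of that of rbg-3. That of rps-26 was at -410 bp of its own start and at -47 bp of that of tmem-107, which encodes a protein of the ciliary base. That of rps-29 was at -517 bp of its own start and at -50 bp of that of the synaptotagmin gene snt-2. The rps-18 summit lay inside its neighbour sec-61.A, which encodes the channel of the protein translocon, 145 bp past its start.

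At other pairs the distances were nearly equal. The rps-15 summit lay at -393 bp and at -388 bp of F36A2.9, the rps-6 summit at -264 bp and at -267 bp of the ubiquitin protease gene usp-3, and the rps-23 summit at -292 bp and at -242 bp of dpm-3. The dpm-3 product is part of an enzyme of sugar transfer in the endoplasmic reticulum. Shared summits also stood before ska-3 at -124 bp (with rps-12), ekl-4 at -175 bp (with rps-20), polh-1 at -155 bp (with rps-22), nfx-1 at -223 bp (with rps-13), sna-3 at -229 bp (with rps-3) and ifet-1 at -507 bp (with rps-1). Genes of both subunits met at 3 of these promoters. The rps-10 summit lay at -274 bp of rpl-24.1, the rps-14 summit at -371 bp of rpl-36 and -872 bp of ndab-2, and the rps-30 summit at -287 bp of rpl-39 and -934 bp of C26F1.3. The rps-28 summit was shared with Y41D4B.4, at -876 bp on the same strand. The 6 with an unshared summit were rps-4, rps-11, rps-16, rps-17, rps-24 and ubl-1.

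The arrangement of genes moved with the calls. Of the 32 members, 19 had a divergent coding neighbour whose start lay within 1000 bp, and 17 of these had an IDR summit (89.5%), against 14 of 28 large subunit genes (50%) and 16.1% of 3503 coding genes so arranged. Where the upstream neighbour ran on the same strand, 4 of 9 members had one (44.4%), against 11 of 16 large subunit genes (68.8%) and 4.92% of 10897 coding genes. Of 4 members with a divergent neighbour farther off, 3 had one, against 1 of 3 large subunit genes and 5.30% of coding genes. This split was chosen after the values were seen. The order of the first 2 arrangements was thus not the same in the genes of the small and the large subunit, and that difference was not tested.

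Members also fell on chromosomes with unlike backgrounds. An IDR summit was at 7 of 8 members on chromosome I, 9 of 10 on III, 6 of 10 on IV and 2 of 3 on V, and not at rps-9, the only member on II. All coding genes had one at 9.80% on chromosome I, 12.3% on III, 7.19% on IV, 4.39% on V and 6.84% on II. No member lies on X.

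**Figure D3:**
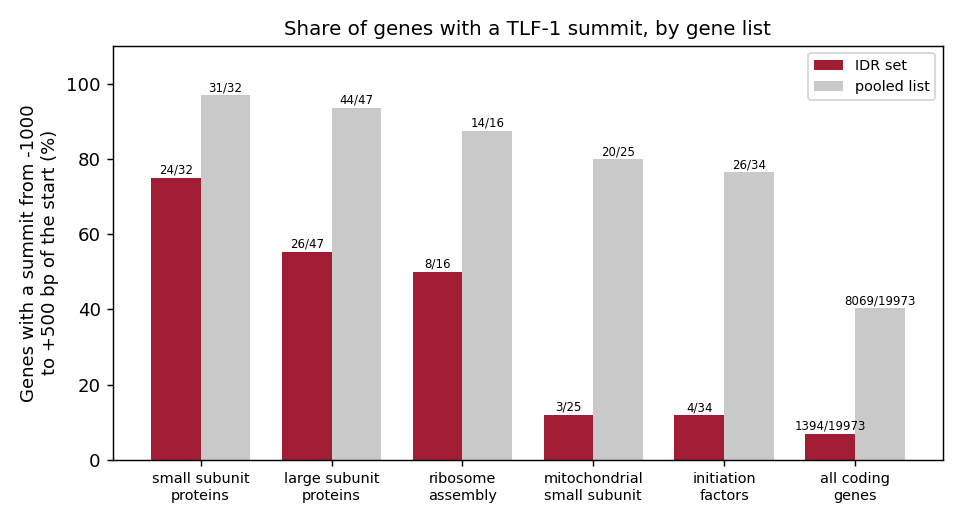
Percent of genes with an IDR summit (red) or a pooled summit (grey) from -1000 to +500 bp of the start, by gene list, with the number of genes above each bar. Small subunit genes have the highest IDR share, 75%, against 55.3% for large subunit genes and 6.98% for all coding genes.

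Other genes of translation were set beside the members. Large subunit genes held the strongest peaks, with rpl-3 at IDR rank 1, rpl-20 at 3, rpl-35 at 4 and rpl-15 at 6. Genes that assemble ribosomes had an IDR summit at 8 of 16 (50%), led by fib-1 at rank 383, pro-1 at 459, nol-58, which encodes a partner of fibrillarin, at 523 and nol-10 at 528. Mitochondrial small subunit genes, whose products belong to the separate ribosome of mitochondria, had one at 3 of 25 (12%), which were mrps-21 at rank 275, mrps-35 at 1470 and mrps-7 at 1504. Translation initiation factor genes had one at 4 of 34 (11.8%), which were iff-2 at rank 38, eif-3.C at 68, eif-2Bgamma at 781 and eif-3.B at 1235. In the pooled list these 3 groups had a summit at 14 of 16, 20 of 25 and 26 of 34 genes, all above the 40.4% of coding genes. Of 4 genes of the kinase pathway that acts on rps-6, rheb-1 had an IDR summit, at rank 184, and rsks-1, let-363 and daf-15 had none. The gene of the ribosome scaffold protein, rack-1, had a pooled but no IDR summit.

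Counts of short motifs in the member windows depended on the width of the window. In windows of 201 bases around the summit, TATAAA, the core of the box that TBP binds, was in 2 of 24 member windows (8.33%), against 4 of the 23 large subunit windows not shared with a member (17.4%), 15.1% of 1033 windows at other coding genes and 24.3% of all promoters at -289 bp. CCAAT was in 9 (37.5%), against 4 large subunit windows (17.4%), 29.1% at other coding genes and 34.5% of promoters. TTTCCC was in 5 (20.8%), against 3 large subunit windows (13%), 19.5% and 17.1%. For CCAAT and TTTCCC the shares lay within 1 window of those of promoters. The windows are centred on summits, and most of them end upstream of the annotated start. They therefore do not tell whether a member has a TATA box close to its start. Promoter windows were also poorer in G and C than member windows, as given below. In narrower and wider windows, of 100 and 400 bp around the summit, TATAAA was in 0 and 7 member windows, CCAAT in 4 and 14, and TTTCCC in 2 and 9. A wider window holds every match of a narrower one, so these counts can only rise with width. Shares over other summits and promoters were not counted at these widths.

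Motifs rich in G and C ran differently. GCGCCA was in none of 24 member windows, which allows a share of up to 12.5% by counting error alone, against 2 of 23 large subunit windows (8.70%), 20.1% at other coding genes and 3.47% of promoters. GCGCGC was in 2 member windows (8.33%), against 4 large subunit windows (17.4%), 15% and 2.23%. TGCGCA was in 1 (4.17%), that of rps-28, against 2 large subunit windows (8.70%), 6.97% and 2.31%. GCGCGC and TGCGCA equal their own reverse complements, and matches to the motifs may overlap. The base composition of member windows was close to that of other summits, at 41.5% G and C, against 41.9% in large subunit windows, 41.3% at other coding genes and 34.4% in promoters. The dinucleotide CG occurred a median of 12.5 times in a member window, against 12 times in large subunit windows, 11 at other coding genes and 5 in promoters. Windows of the 8 members without an IDR summit, around their strongest other summit, held TATAAA in 4, CCAAT in 3 and TTTCCC in 2.

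A pair of longer words recurred in the member windows. They were found by listing every word of 12 letters that uses all 4 bases and occurs in at least 5 of the 24 windows on either strand, and merging those that overlap, so they were chosen from the windows themselves and carry no test. The stretches below show them in capitals with the bases around them, since in some pairs the likeness runs on beyond the word and in others it does not. The 12-letter word stands in the lines of rps-23 and rps-13 (for rps-23 the plus strand of the genome is shown, opposite to the gene). The 14-letter word stands in the lines of rps-0, rps-22, rps-30 and rps-3, all on the strand of the gene. The capitals of rps-0 run on into TATAAA read on the other strand, and rps-3 has CCAAT on the other strand near its left end.
rps-23, chrIV:12391282-12391332, plus strand, 51 bases: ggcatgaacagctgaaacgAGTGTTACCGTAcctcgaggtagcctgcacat
rps-13, chrIII:6375142-6375192, minus strand, 51 bases: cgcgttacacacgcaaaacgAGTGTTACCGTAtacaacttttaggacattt
rps-0, chrIII:4754303-4754353, minus strand, 51 bases: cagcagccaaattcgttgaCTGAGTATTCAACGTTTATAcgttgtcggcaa
rps-22, chrIII:1950414-1950464, plus strand, 51 bases: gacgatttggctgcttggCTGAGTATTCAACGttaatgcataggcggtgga
rps-30, chrV:7776327-7776377, plus strand, 51 bases: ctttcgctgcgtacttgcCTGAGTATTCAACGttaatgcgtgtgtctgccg
rps-3, chrIII:6206462-6206512, plus strand, 51 bases: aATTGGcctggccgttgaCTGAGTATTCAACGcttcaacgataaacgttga

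The 12-letter word was in the windows of 5 members, rps-10, rps-13, rps-17, rps-18 and rps-23. It was in 3 of 23 large subunit windows, in 5 of 1833 windows at all other IDR summits (0.273%) and in 13 of 19973 promoters at the same distance (0.0651%). It occurred 32 times in the genome, 13 times within 100 bp of an IDR summit and 19 times within 100 bp of a pooled one. Both of the last counts include the 5 copies in the member windows from which the word was chosen. At the members its centre lay between -651 bp of the start, at rps-18, and -170 bp, at rps-13, and at most 91 bp from the summit. The strand varied, with rps-10 and rps-23 on the opposite one. Taking all occurrences from -1000 to +500 bp of a coding start, 36 coding genes had the word, of which 5 were members, 6 were large subunit genes and 25 were others. An IDR summit was at 22 of these 36, which were the 5 members, by construction, 4 large subunit genes and 13 others. The large subunit gene rpl-24.1 and the others dpm-3, nfx-1 and sec-61.A share the word and summit of a member. They are not further occurrences, and their IDR summit is also by construction.

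The 14-letter word was in the windows of rps-0, rps-3, rps-20, rps-22 and rps-30, on the strand of the gene in each. It was in 3 of 23 large subunit windows, in 4 of 1833 other IDR windows (0.218%) and in 11 promoters (0.0551%). Of its 20 occurrences in the genome, 12 lay within 100 bp of an IDR summit and 13 within 100 bp of a pooled one. Both counts include the 5 copies in the member windows from which the word was chosen. At the members its centre lay between -316 bp of the start, at rps-3, and -96 bp, at rps-22, and at most 54 bp from the summit. Taking all occurrences from -1000 to +500 bp of a coding start, 19 coding genes had this word, of which 5 were members, 4 were the large subunit genes rpl-7A, rpl-13, rpl-32 and rpl-39, and 10 were others. Of these 19, 18 had an IDR summit, the 5 members by construction, since the word was taken from their IDR windows. Several of the others, namely rbg-3, ekl-4, polh-1, sna-3 and C26F1.3, and the large subunit gene rpl-39 share the word and summit of a member. They are not further occurrences, and their IDR summit is also by construction.

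No member window held both words, and 10 of 24 held either. None of the 8 windows of members without an IDR summit held one. The words were chosen from the 24 windows with an IDR summit, so members with and without one cannot be compared on them. Words of 10 letters in at least 5 windows gave 2 families and 10 members, and words of 14 letters in at least 4 windows gave 2 families and 8 members. Both of these rules were added after the values were seen.

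**Figure D4:**
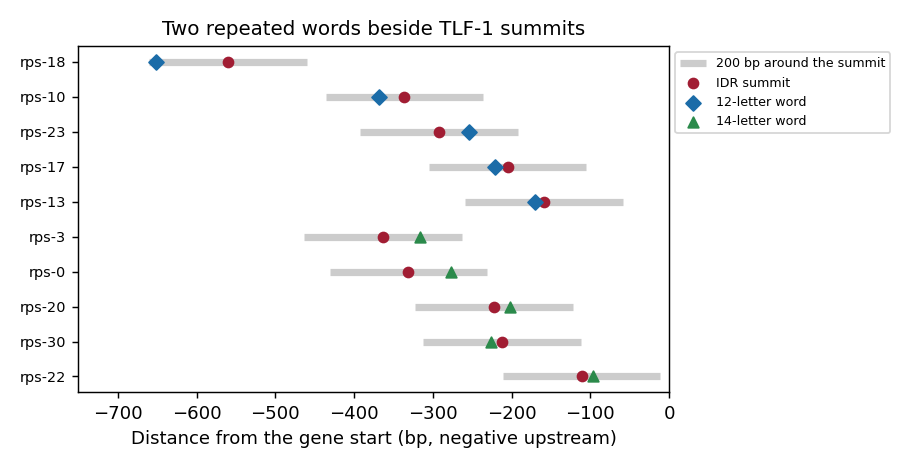
Position of the 12-letter word (diamonds) and the 14-letter word (triangles) relative to the annotated start, in bp with upstream negative, at the 10 members whose window holds one. Grey bars span 100 bp to each side of the IDR summit (circles), and the words lie between 11 and 91 bp from it.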

How the data were processed

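Per the labels, both samples are immunoprecipitations of the same strain and age with separate biosample records, mapped to ce11. The authors deposited peak lists with a signal value, a −log10 q-value and a summit offset per peak. Per the README files, the pooled and IDR lists derive from both replicates and 1 shared control. The caller, like the aligner and the IDR threshold, was not given in the sources used here. The depth is unknown, and the limit on a share covers counting error only. The −log10 q-value deposited was not used. Peaks were ranked within each list by signal.

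Gene starts are the 5′ ends of Ensembl release 115 gene records on WBcel235, with mitochondrial genes left out. A gene has a summit when one lies from -1000 to +500 bp, and the strongest is described. A summit may serve several genes. All members with an IDR summit are named, with up to 4 genes of each other list. A further summit sequence is not reported here. Members and lists were chosen with earlier results of these data known, so counts carry no test. The placement code was tested on simulated data and placed 500 of 500 starts as planted. Alternatives were other windows, starts, strengths, single replicates and motif widths. Python 3.11.15, numpy 2.4.6, pandas 2.3.3 and matplotlib 3.10.9 were used.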

Additional observations from a re-analysis of the deposited data

How the results depend on the processing

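Across the alternative settings, 44 values were compared with the main ones. Of these, 29 moved by less than the margin used and 15 moved further. The margin was 1.5 times for a count, and for the median distance the SD of the replicate medians, 12 bp. For the median replicate ranks it was likewise the SD of the replicate medians. The 12 bp came from the single-replicate median distances, so it is no separate check of those distances. With the 1880 strongest peaks of each replicate alone in place of the IDR set, 21 to 23 members had a summit, with a median distance of -297 to -280 bp and 16 to 17 shared. From -500 to +100 bp the median distance was -273 bp. From -250 to +100 bp, 8 members had an IDR summit, at a median of -181.5 bp, and 4 shared it, since that window leaves out summits farther upstream. With each summit counted once, 13 members had one, at a median of -261 bp. In the stronger 940 IDR peaks, 8 members were nearest to their summit, since fewer peaks are counted. In the 1280 IDR peaks that were strong in both replicates, chosen after seeing the data, 18 members had a summit, at a median of -302 bp, and the cause of that shift was not tested. Of 12 motif counts in narrower or wider windows, 7 moved. No paired analysis was possible because there is 1 group. Depth is unknown, so a member without an IDR summit is not shown to lack TLF-1.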
